A study of Homo sapiens with 6 samples.

Results

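The genes described here are 45 genes of the autophagy machinery and its cargo receptors, picked by symbol from the 26255 gene symbols of each expression table. All 45 symbols were present, and 43 had a mean of at least 1 FPKM (mapped fragments scaled to transcript length and to library size) over the 6 libraries, in each group as well as overall. The cells were HCT116, an established human colorectal carcinoma line, and the series is on colorectal cancer cells that were transduced with the degron of ornithine decarboxylase as a model of cancer stem cells. In such reporters the degron sends the fluorescent protein ZsGreen to the proteasome without ubiquitin, so that cells that degrade it slowly become bright. Polyadenylated RNA was sequenced from 3 libraries of ZsGreen-negative cells and 3 libraries of ZsGreen-positive cells. No treatment, time point, clone or passage was given for either group. Whether the 3 libraries of a group were separate cultures is not stated, so p-values reflect the scatter of these libraries alone, which may be technical. Sample titles follow a different naming scheme in each group, and a batch aligned with ZsGreen status and that status itself cannot be told apart.

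Autophagy encloses cytoplasm in a double membrane, the autophagosome, which then fuses with lysosomes. The ULK kinase complex starts the process, a class III PI3-kinase complex marks the forming membrane with the lipid PI3P, and WIPI proteins, ATG2 and ATG9 bring in lipid. A conjugation system then attaches the ubiquitin-like ATG8 proteins, the LC3 and GABARAP families, to the membrane, where they hold receptors such as p62 (SQSTM1) that carry ubiquitin-tagged cargo. In tumour cells autophagy and the proteasome are the main routes of protein disposal, and SQSTM1 is known as a target of the oxidative stress factor NRF2.

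Summed FPKM was 1814655 to 1840483 in the ZsGreen-negative and 1468235 to 1767785 in the ZsGreen-positive libraries. Small RNA genes made up 65.9% to 68.1% of these sums, and the 10 highest genes took 56.9% to 57.4% in ZsGreen-negative against 45.6% to 47.5% in ZsGreen-positive libraries. The size of a single fragment could be read from low values in 4 libraries, and it gave estimated depths, in units of 1000000 fragments, of 9.32 to 9.57 per ZsGreen-negative library and 12 in ZsGreen-positive replicate 1. No such step was found in ZsGreen-positive replicates 2 and 3, which listed 11624 and 11989 genes at 0, against 10314 in replicate 1 and, among ZsGreen-negative libraries, 8985 to 9162, so their depth is not known. Of 14 colorectal epithelial markers 10 had a mean of at least 1 FPKM, with EPCAM, KRT8, KRT18 and KRT19 at 129 or more in both group means, while VIL1, LGALS4 and CEACAM5 were under 0.1 and CDX1 was listed at 0 in all 6. Of these 10 markers 5 fell, 2 rose and 3 did not pass. CLDN4, a tight junction protein, went from 381 ± 5.74 to 93.0 ± 14.2 FPKM (log2 fold change -2.03) and CDH1, which encodes E-cadherin, from 49.9 ± 0.455 to 17.4 ± 1.42 FPKM (-1.47), as large as many of the changes described here, and any link of these to the autophagy values was not tested. The markers of fibroblasts summed to 2.35 to 2.54 FPKM in the ZsGreen-negative and 0.743 to 1.19 in the ZsGreen-positive libraries, those of leukocytes to 3.49 to 4.47 and 0.470 to 4.49, and those of endothelium to 0.115 to 0.166 and 0.171 to 0.310. COL1A2, DCN, LUM, CD3E, CD3D and MS4A1 were listed at 0 in all 6.

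Sequences are shown for the points where they bear on the values. MAP1LC3B and MAP1LC3B2 have coding sequences of 378 bases that differ at 2 of them (GENCODE release 29, GRCh38), so fragments from the coding part can hardly be assigned between them. Their transcripts are less alike outside it, with 97.3% identity over 601 of the 660 bases of MAP1LC3B2. In the stretch from coding base 1 to 60, given here 5′ to 3′, the single differing base is in capitals.
MAP1LC3B: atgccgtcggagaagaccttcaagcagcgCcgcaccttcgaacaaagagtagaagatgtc
MAP1LC3B2: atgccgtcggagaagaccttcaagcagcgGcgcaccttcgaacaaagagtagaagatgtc

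Promoter windows of the 250 bases before each listed start were searched on both strands in RefSeq sequences (GRCh38.p14), which held 46 windows for 37 of the 45 genes. The motif TGACNNNGC, the core of the antioxidant response element, was found in 3 of these 46 windows and in 10.9% of all 35116 windows. All 3 genes were lower in ZsGreen-positive cells, which is why their windows are shown. SQSTM1, named above as a target of NRF2, was not among these 3. Of the 43 genes tested 25 were lower, and any link of the motif to these falls was not tested. The windows around the motif have the match in capitals. They lie on the plus strand at chr16:87392264-87392323 for MAP1LC3B, chr12:52069832-52069891 for ATG101 and chr17:48830880-48830939 for CALCOCO2, where the match is to the opposite strand.
MAP1LC3B: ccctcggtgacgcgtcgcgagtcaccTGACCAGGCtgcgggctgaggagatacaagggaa
ATG101: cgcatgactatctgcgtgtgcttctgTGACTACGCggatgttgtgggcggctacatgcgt
CALCOCO2: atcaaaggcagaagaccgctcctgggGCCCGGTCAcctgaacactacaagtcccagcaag

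The E-box CACGTG, bound by factors of the MYC and TFEB families, was also in 3 of the 46 windows, those of ATG3, ATG14 and BNIP3. It was in 2228 of all 35116 windows, or 6.3%. Of these genes ATG3 was lower in ZsGreen-positive cells, ATG14 did not pass and BNIP3 was higher. The motif is shown for BNIP3 only (minus strand, chr10:131982027-131982083), and any link of it to these directions was not tested. The CLEAR motif, which is the E-box with GT before it and AC after it, and TGATGNAA, a site of C/EBP and ATF factors, were in none of the 46 windows, against 0.308% and 3.14% of all windows.
BNIP3: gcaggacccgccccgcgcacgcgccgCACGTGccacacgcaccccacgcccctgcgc

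Many transcripts of the autophagy machinery were lower in ZsGreen-positive cells, with the largest falls in MAP1LC3B and in the receptor genes SQSTM1 and OPTN. Of the 43 genes tested, 25 fell, 2 rose and 16 did not pass (limma, adjusted p below 0.05 over all 12213 genes tested). Over all genes tested 59.4% passed, 30.0% lower and 29.4% higher. The 25 genes are 58.1% of the 43 and the 2 are 4.65%. Falls of at least 2-fold on the log2(FPKM + 1) scale were found for 12 of the 43, against 8.34% of all genes, and rises of that size for 0. For 32 of the 43, every library of one group lay beyond every library of the other, against 67.6% of all genes. The median log2 fold change was -0.35 for these genes and 0.0040 for all genes. In bulk RNA, fewer cells that express a gene and less RNA of it per cell cannot be told apart.

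These directions depend in part on scale. With libraries scaled by the median ratio over genes, 25 of the 43 genes were lower and 2 higher, with a median of all genes of 0.0015. With quantile normalization 26 were lower and 1 higher. With each library rescaled to a sum of 1000000, the median of all genes moved to 0.15 and that of the 43 genes to -0.19, with 17 of 41 tested genes lower and 6 higher, against 22.4% and 37.1% of all genes. Of the 25 falls, 17 were called under every one of 17 alternative settings. The other 8 were CALCOCO2 and STX17, not called under this rescaling (adjusted p = 0.0579 and 0.0662), and PIK3C3, PIK3R4, WIPI2, ATG2B, ATG9A and ATG3, which were not called under it and also without at least 1 single library. In the following, values are FPKM in replicates 1, 2 and 3 of a group, means are given ± SD (n = 3 libraries) and log2 fold changes, positive minus negative, ± SE.

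**Figure D1:**
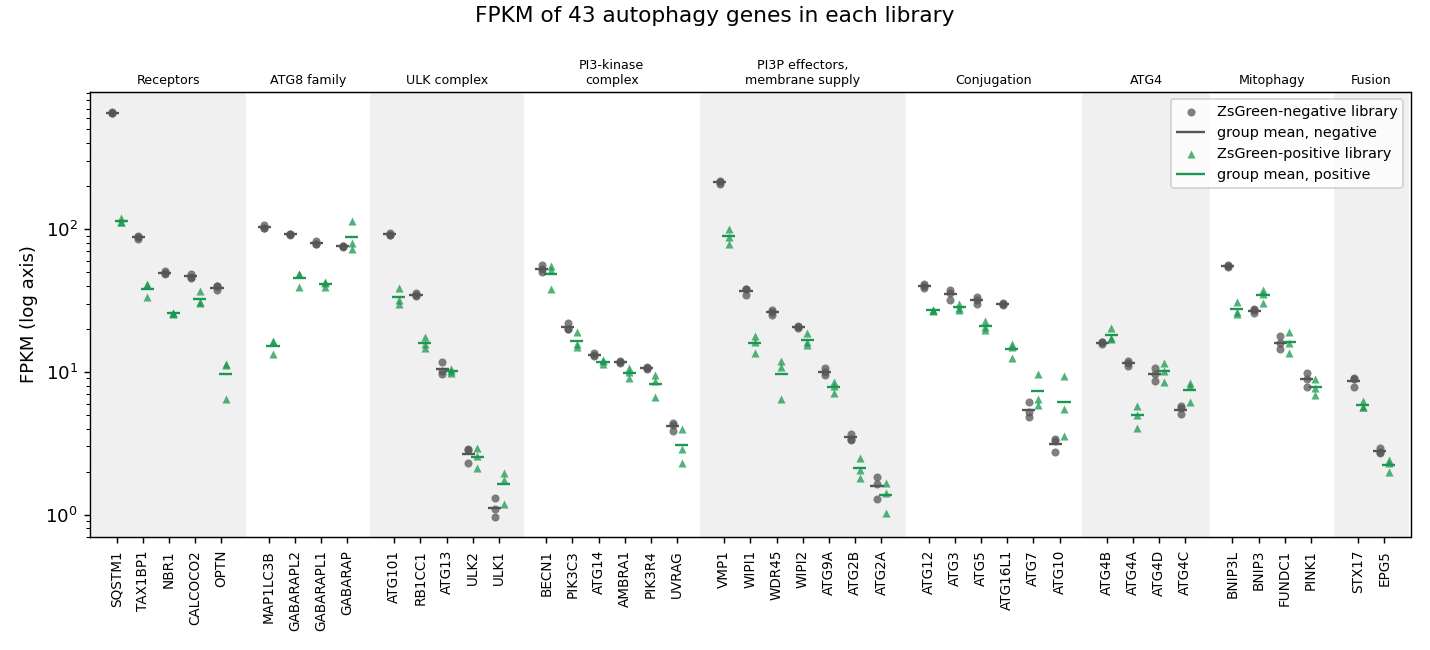
FPKM on a log axis of the 43 tested genes in each of the 3 ZsGreen-negative (grey circles) and 3 ZsGreen-positive libraries (green triangles), ordered by role, with bars at the group means. SQSTM1 and VMP1 had the highest mean in both groups, and MAP1LC3B went from place 3 to place 22 of the 45 genes.

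All 5 cargo receptors fell. SQSTM1, which carries ubiquitin-tagged cargo, was the most abundant of the 45 genes in both groups. It was at 651, 663 and 649 FPKM in ZsGreen-negative and 120, 112 and 112 FPKM in ZsGreen-positive libraries (log2 fold change -2.50 ± 0.05, adjusted p = 1.68e-07). The groups were far apart and each was tight, and the mean was 5.71-fold higher in ZsGreen-negative cells. OPTN encodes optineurin, a receptor for mitochondria and bacteria. Its values were 37.5, 39.7 and 39.8 against 11.4, 6.41 and 11.2 FPKM (log2 fold change -1.94 ± 0.19, adjusted p = 0.000123). ZsGreen-positive replicate 2 was the lowest of the 6 for OPTN. TAX1BP1, a receptor related to CALCOCO2, was at 85.5, 88.5 and 89.1 against 40.4, 33.3 and 41.4 FPKM (log2 fold change -1.18 ± 0.09, adjusted p = 3.29e-05). NBR1, a receptor that acts with SQSTM1, went from 49.3 ± 1.19 FPKM to 25.9 ± 0.244 FPKM (log2 fold change -0.90 ± 0.06, adjusted p = 1.49e-05). CALCOCO2, which encodes NDP52, a receptor for invading bacteria and mitochondria, fell least, from 46.7 ± 1.53 FPKM to 32.6 ± 3.62 FPKM (log2 fold change -0.51 ± 0.09, adjusted p = 0.00175). In GENCODE release 29, exons of 23 of the 45 genes overlap a gene on the opposite strand, for 17 of them 1 that the tables list, and with strand use in counting not known their fragments cannot be told apart. For SQSTM1 that gene is MGAT4B. MGAT4B was at 32.9 to 36.0 against 16.5 to 24.1 FPKM, and its part in the SQSTM1 values was not tested.

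The receptors fell by unequal amounts, so their composition differed between the groups. SQSTM1 took 74.6% ± 0.390 of the summed FPKM of the 5 receptors in ZsGreen-negative and 51.8% ± 1.18 in ZsGreen-positive libraries. CALCOCO2 took 5.33% ± 0.175 and 14.8% ± 2.05, TAX1BP1 9.998% ± 0.178 and 17.3% ± 1.65, and NBR1 5.62% ± 0.184 and 11.7% ± 0.436. The groups did not overlap for these 4 shares (two-sided exact permutation test, p = 0.1 each, the smallest that 3 against 3 can give; adjusted p = 0.143 over 20 shares tested in families). OPTN was at 4.45% ± 0.123 and 4.36% ± 1.19, with overlapping groups. Such shares do not depend on how a library is scaled.

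Within the ATG8 family, LC3B fell most and GABARAP did not pass the test. MAP1LC3B, the LC3 gene with most of the transcript, was at 101, 102 and 107 FPKM in ZsGreen-negative and 13.3, 16.4 and 16.1 FPKM in ZsGreen-positive libraries (log2 fold change -2.69 ± 0.09, adjusted p = 1.11e-06). No library of one group came near the other group. GABARAPL2, also known as GATE-16, was at 93.0, 92.2 and 91.6 against 48.2, 48.7 and 39.3 FPKM (log2 fold change -1.014 ± 0.09, adjusted p = 6.68e-05). GABARAPL1 fell from 80.2 ± 2.42 FPKM to 41.3 ± 1.84 FPKM (log2 fold change -0.94 ± 0.06, adjusted p = 1.60e-05). GABARAP was at 75.7, 74.98 and 76.3 against 113, 79.6 and 72.1 FPKM (log2 fold change 0.19 ± 0.15, 95% interval -0.17 to 0.55, adjusted p = 0.313). Its ZsGreen-positive replicate 1 stood above the other 5 libraries, and when it alone stood for the positive group the log2 fold change was 0.57 (adjusted p = 0.000339). Under the rescaling to 1000000 it was 0.37 (adjusted p = 0.0308). MAP1LC3A was listed at 0.124 FPKM in ZsGreen-negative replicate 1 and at 0 in the other 5 libraries. MAP1LC3B2 had 0.143, 0.150 and 0.296 FPKM in ZsGreen-negative libraries and was listed at 0 in the 3 ZsGreen-positive ones, far below MAP1LC3B in the same libraries, and how fragments from the near-identical part shown above were assigned is not known.

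In ZsGreen-negative libraries the 4 expressed ATG8 genes had similar levels, and in ZsGreen-positive libraries GABARAP led. The share of GABARAP in the summed FPKM of the family was 21.7%, 21.6% and 21.3% in ZsGreen-negative and 52.9%, 42.7% and 42.3% in ZsGreen-positive libraries. The share of MAP1LC3B was 29.01%, 29.3% and 29.8% against 6.20%, 8.78% and 9.43%. For both shares the groups were well separated (two-sided exact permutation test, p = 0.1; adjusted p = 0.143). GABARAPL1 held 22.8% ± 0.335 and 22.0% ± 3.43 and GABARAPL2 26.3% ± 0.551 and 23.9% ± 1.95, with overlapping groups. The summed FPKM of the family was 352 ± 5.38 against 190 ± 22.1.

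**Figure D2:**
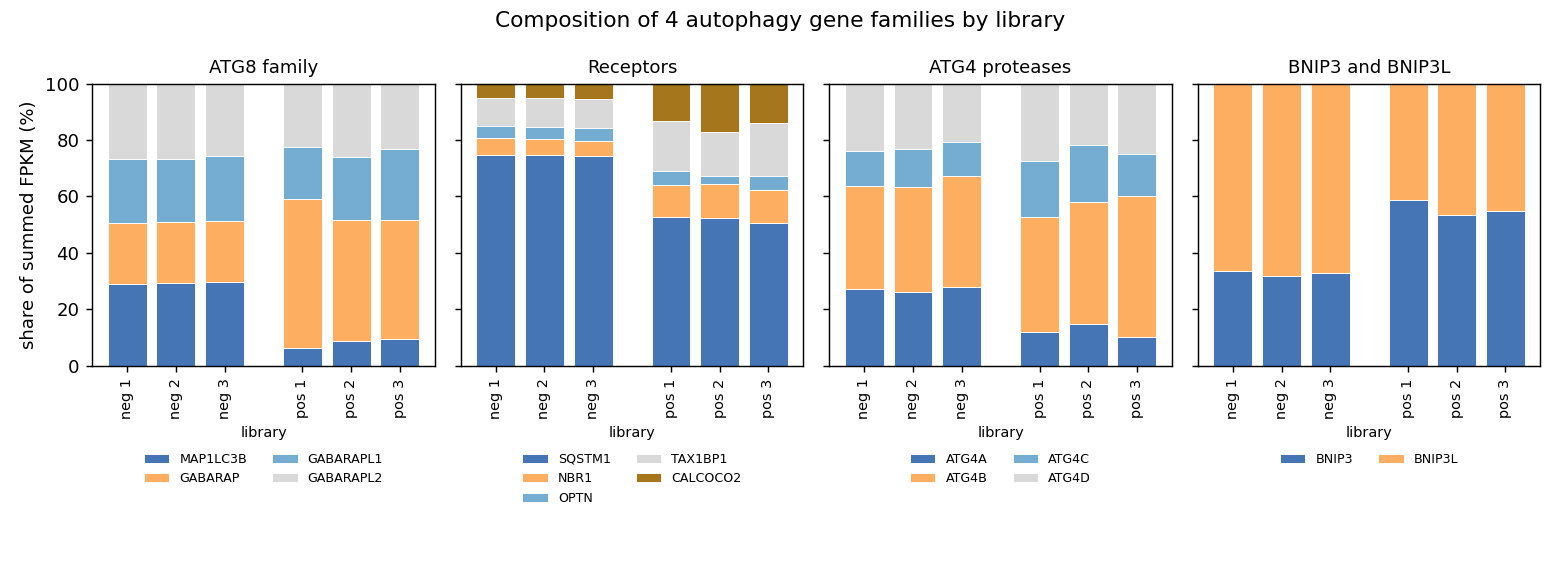
Share in percent of the summed FPKM of each family that each gene took in each of the 6 libraries (neg, ZsGreen-negative; pos, ZsGreen-positive), as stacked bars. In every ZsGreen-positive library the shares of MAP1LC3B, SQSTM1 and ATG4A were smaller and those of GABARAP, CALCOCO2 and BNIP3 larger than in any ZsGreen-negative library.

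The ULK complex was split, with 40% of its genes lower against 30.0% of all genes tested. ATG101 and RB1CC1, whose product FIP200 is the scaffold of the complex, fell, while the kinase genes and ATG13 did not pass. ATG101, which stabilises ATG13, was at 91.1, 91.7 and 93.6 against 38.7, 30.0 and 31.8 FPKM (log2 fold change -1.44 ± 0.10, adjusted p = 1.84e-05). RB1CC1 was at 34.7, 33.9 and 35.8 against 14.7, 15.6 and 17.6 FPKM (log2 fold change -1.08 ± 0.08, adjusted p = 3.52e-05). Both genes had groups far apart. ATG13, the adaptor of the complex, was at 10.5 ± 1.066 and 10.1 ± 0.332 FPKM (log2 fold change -0.04 ± 0.10, 95% interval -0.27 to 0.18), and its sign changed under rescaling to 1000000, with 0.11. The kinase genes were among the lowest of the 43. ULK1 was at 0.962, 1.09 and 1.299 against 1.19, 1.76 and 1.97 FPKM (log2 fold change 0.31 ± 0.18, adjusted p = 0.182). Without ZsGreen-positive replicate 1 ULK1 passed, with a log2 fold change of 0.44 (adjusted p = 0.0479). ULK2 was at 2.68 ± 0.327 and 2.54 ± 0.417 FPKM (log2 fold change -0.06 ± 0.15), and its sign changed under both rescalings to 1000000. ULK1 made up 29.5% ± 3.92 and 39.2% ± 9.05 of the summed FPKM of the ULK1 and ULK2 pair, with overlapping groups (two-sided exact permutation test, p = 0.3).

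Of the 6 genes of the class III PI3-kinase complex, 2 fell narrowly and 4 did not pass. The 2 are 33.3%, near the 30.0% of all genes tested that were lower. BECN1, which encodes Beclin 1, was at 55.6, 52.2 and 50.1 against 52.1, 37.8 and 55.3 FPKM (log2 fold change -0.14 ± 0.14, 95% interval -0.46 to 0.19). Its groups overlapped. PIK3C3, the lipid kinase VPS34, and PIK3R4, its regulatory subunit VPS15, were the ones that fell. PIK3C3 went from 20.7 ± 1.20 FPKM to 16.5 ± 2.12 FPKM (log2 fold change -0.31 ± 0.10, adjusted p = 0.0330) and PIK3R4 from 10.7 ± 0.142 to 8.27 ± 1.43 FPKM (-0.35 ± 0.13, adjusted p = 0.0480). Neither call held without ZsGreen-negative replicate 1 (adjusted p = 0.0765 and 0.129), 2 (0.0705 and 0.120) or 3 (0.125 and 0.115) or without ZsGreen-positive replicate 1 (0.0749 and 0.0559). PIK3C3 was also not called without ZsGreen-positive replicate 3 (0.0772), nor PIK3R4 without ZsGreen-positive replicate 2 (0.0533). ATG14, which directs the complex to autophagy, was at 13.2 ± 0.325 and 11.8 ± 0.366 FPKM (log2 fold change -0.15 ± 0.07, adjusted p = 0.114). UVRAG, the subunit of the endosomal form, was at 4.16 ± 0.290 and 3.06 ± 0.867 FPKM (adjusted p = 0.106), and it was called without ZsGreen-positive replicate 3 (log2 fold change -0.52, adjusted p = 0.0138). AMBRA1, a regulator of Beclin 1, was at 11.7 ± 0.176 and 9.85 ± 0.788 FPKM (adjusted p = 0.0541), and it was likewise called without that library (log2 fold change -0.28, adjusted p = 0.0225).

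PI3P effectors and genes of membrane supply fell in 6 of 7 cases (85.7%, against 30.0% of all genes tested). VMP1, a membrane protein of the endoplasmic reticulum that remodels contacts with the forming autophagosome, was second in abundance among the 45 genes. It was at 208, 218 and 215 FPKM in ZsGreen-negative and 100, 88.0 and 79.1 FPKM in ZsGreen-positive libraries (log2 fold change -1.26 ± 0.09, adjusted p = 2.27e-05). Every ZsGreen-positive library was below every ZsGreen-negative one. The microRNA gene MIR21 lies within VMP1 and was listed at 0 in all 6, and exons of PTRH2 overlap VMP1 on the opposite strand, at 72.9 to 77.9 against 49.6 to 58.0 FPKM. Its part in the VMP1 values was not tested. WIPI1, which binds PI3P, was at 34.7, 38.1 and 38.1 against 17.95, 16.1 and 13.7 FPKM (log2 fold change -1.17 ± 0.11, adjusted p = 7.35e-05). WDR45, which encodes another protein of the WIPI family, was at 24.9, 27.2 and 26.4 against 11.9, 10.8 and 6.41 FPKM (log2 fold change -1.38 ± 0.20, adjusted p = 0.000751). ZsGreen-positive replicate 3 was the lowest of the 6 for both genes, and a processed pseudogene, WDR45P1, is 95.8% identical to WDR45 over 1083 bases.

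WIPI2, the paralogue that recruits ATG16L1, differed less than WIPI1. It went from 20.6 ± 0.423 FPKM to 16.8 ± 1.71 FPKM (log2 fold change -0.29 ± 0.09, adjusted p = 0.0245), and the call was lost without ZsGreen-negative replicate 1 (adjusted p = 0.0915), 2 (0.0784) or 3 (0.0704) or ZsGreen-positive replicate 3 (0.0501). WIPI1 took 64.2% ± 1.68 of the summed FPKM of WIPI1 and WIPI2 in ZsGreen-negative and 48.7% ± 3.51 in ZsGreen-positive libraries, with no overlap (two-sided exact permutation test, p = 0.1; adjusted p = 0.143). ATG9A, the lipid scramblase of ATG9 vesicles, went from 9.996 ± 0.613 FPKM to 7.87 ± 0.747 FPKM (log2 fold change -0.31 ± 0.10, adjusted p = 0.0305). That call was lost without ZsGreen-negative replicate 1 (0.127), 2 (0.0944) or 3 (0.0639) or ZsGreen-positive replicate 2 (0.0520). ATG2B, a lipid transfer protein, went from 3.48 ± 0.183 FPKM to 2.12 ± 0.343 FPKM (log2 fold change -0.53 ± 0.14, adjusted p = 0.0127), and the call was lost without ZsGreen-negative replicate 1 (0.0527) or 2 (0.0697). Its paralogue ATG2A was at 1.59 ± 0.277 and 1.37 ± 0.320 FPKM with overlapping groups (adjusted p = 0.542). ATG2A held 31.3% ± 3.63 and 39.2% ± 9.41 of the summed FPKM of the ATG2 pair (two-sided exact permutation test, p = 0.3). Exons of GSKIP overlap ATG2B on the opposite strand. GSKIP was at 26.2 to 28.6 against 6.85 to 13.5 FPKM, and its part in the ATG2B values was not tested.

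Of the conjugation genes, 4 of 6 fell (66.7%, against 30.0% of all genes tested). ATG16L1, which places the conjugation machinery on the membrane, was at 29.2, 30.2 and 29.8 against 12.5, 15.6 and 15.02 FPKM (log2 fold change -1.005 ± 0.09, adjusted p = 9.09e-05). Its partners ATG5 and ATG12 form a conjugate and fell by about as much as each other. ATG5 went from 31.7 ± 1.802 FPKM to 21.1 ± 1.58 FPKM (log2 fold change -0.57 ± 0.08, adjusted p = 0.000733) and ATG12 from 40.04 ± 1.19 to 27.04 ± 0.431 FPKM (-0.55 ± 0.06, adjusted p = 0.000196). Exons of AP3S1 overlap ATG12 on the opposite strand, and those of SLC35A5 overlap ATG3 in the same way. SLC35A5 was at 18.6 to 20.1 against 9.60 to 11.1 FPKM, and its part in the ATG3 values was not tested. ATG3, the E2-like enzyme for ATG8 proteins, fell from 35.1 ± 2.67 FPKM to 28.3 ± 1.36 FPKM (log2 fold change -0.30 ± 0.08, adjusted p = 0.0141). That call was lost without ZsGreen-negative replicate 1 (adjusted p = 0.0687) or 2 (0.0636), and when ZsGreen-positive replicate 1 alone stood for its group (0.0915).

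The E1-like enzyme gene ATG7 and the other E2-like gene, ATG10, did not pass. ATG7 was at 4.86, 5.21 and 6.13 against 6.42, 5.90 and 9.66 FPKM (log2 fold change 0.36 ± 0.18, adjusted p = 0.125). ATG10 was at 2.74, 3.26 and 3.40 against 3.55, 5.50 and 9.36 FPKM (log2 fold change 0.71 ± 0.28, adjusted p = 0.0616). ZsGreen-positive replicate 3 was the highest of the 6 for both, and the ZsGreen-positive spread of ATG10 was wide. Without ZsGreen-positive replicate 1, ATG10 passed, with a log2 fold change of 0.99 (adjusted p = 0.00865). Exons of RPS23, a ribosomal protein gene at 284 to 437 FPKM, overlap ATG10 on the opposite strand, and its part in these low values was not tested.

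The ATG4 proteases, which trim ATG8 proteins before conjugation and release them from membranes, went different ways. ATG4A was at 11.97, 11.1 and 11.6 against 5.01, 5.79 and 4.07 FPKM (log2 fold change -1.08 ± 0.12, adjusted p = 0.000250). ATG4C was higher in ZsGreen-positive libraries, at 5.54, 5.75 and 5.03 against 8.40, 7.98 and 6.12 FPKM (log2 fold change 0.39 ± 0.13, adjusted p = 0.0361). That rise was not called without any one of the 3 ZsGreen-negative replicates (adjusted p = 0.0916, 0.0752 and 0.126) or without ZsGreen-positive replicate 1 (0.0815) or 2 (0.0810). It was also not called with no filter (0.0658) or with quantile normalization (0.0804). ATG4B was at 16.0 ± 0.259 and 18.2 ± 1.91 FPKM (log2 fold change 0.17 ± 0.09, adjusted p = 0.136) and was called under rescaling to 1000000 (0.33, adjusted p = 0.0272). ATG4D was at 9.64 ± 1.011 and 10.1 ± 1.59 FPKM with overlapping groups. The summed FPKM of the 4 proteases was 42.7 ± 1.48 and 40.8 ± 1.67, a difference whose sign changed under rescaling to 1000000, while the share of ATG4A was 27.1% ± 0.892 and 12.2% ± 2.44 and that of ATG4B 37.6% ± 1.35 and 44.7% ± 4.73 (two-sided exact permutation test, p = 0.1 for both shares; adjusted p = 0.143). ATG4C held 12.8% ± 0.755 and 18.4% ± 2.96 and ATG4D 22.6% ± 1.65 and 24.7% ± 2.91.

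BNIP3 and BNIP3L are related receptors in the outer mitochondrial membrane and went in opposite directions. BNIP3 was at 27.4, 25.7 and 27.1 against 37.6, 35.3 and 30.5 FPKM (log2 fold change 0.35 ± 0.09, adjusted p = 0.0111), with no overlap. Without ZsGreen-negative replicate 2 its adjusted p was 0.0502. BNIP3L, also called NIX, was at 54.3, 54.9 and 55.7 against 26.2, 31.0 and 25.3 FPKM (log2 fold change -0.98 ± 0.08, adjusted p = 6.33e-05). BNIP3 accordingly took 32.7% ± 0.824 of the summed FPKM of the pair in ZsGreen-negative and 55.6% ± 2.93 in ZsGreen-positive libraries (two-sided exact permutation test, p = 0.1; adjusted p = 0.143). FUNDC1, a further mitochondrial receptor gene, was at 16.0 ± 1.66 and 16.2 ± 2.78 FPKM (log2 fold change 0.0038 ± 0.13, 95% interval -0.31 to 0.32). PINK1, the kinase that marks damaged mitochondria, was at 8.86 ± 0.993 and 7.84 ± 0.999 FPKM (log2 fold change -0.16 ± 0.12, adjusted p = 0.304), and its difference went to 0.00265 under rescaling to 1000000. PINK1 overlaps an antisense gene, PINK1-AS, at 7.77 to 10.6 FPKM.

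Of the fusion factors, STX17, the SNARE of the finished autophagosome, fell from 8.63 ± 0.673 FPKM to 5.87 ± 0.344 FPKM (log2 fold change -0.49 ± 0.10, adjusted p = 0.00436). EPG5, a tether for fusion with late endosomes and lysosomes, was at 2.79 ± 0.128 and 2.24 ± 0.224 FPKM (adjusted p = 0.164).

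**Figure D3:**
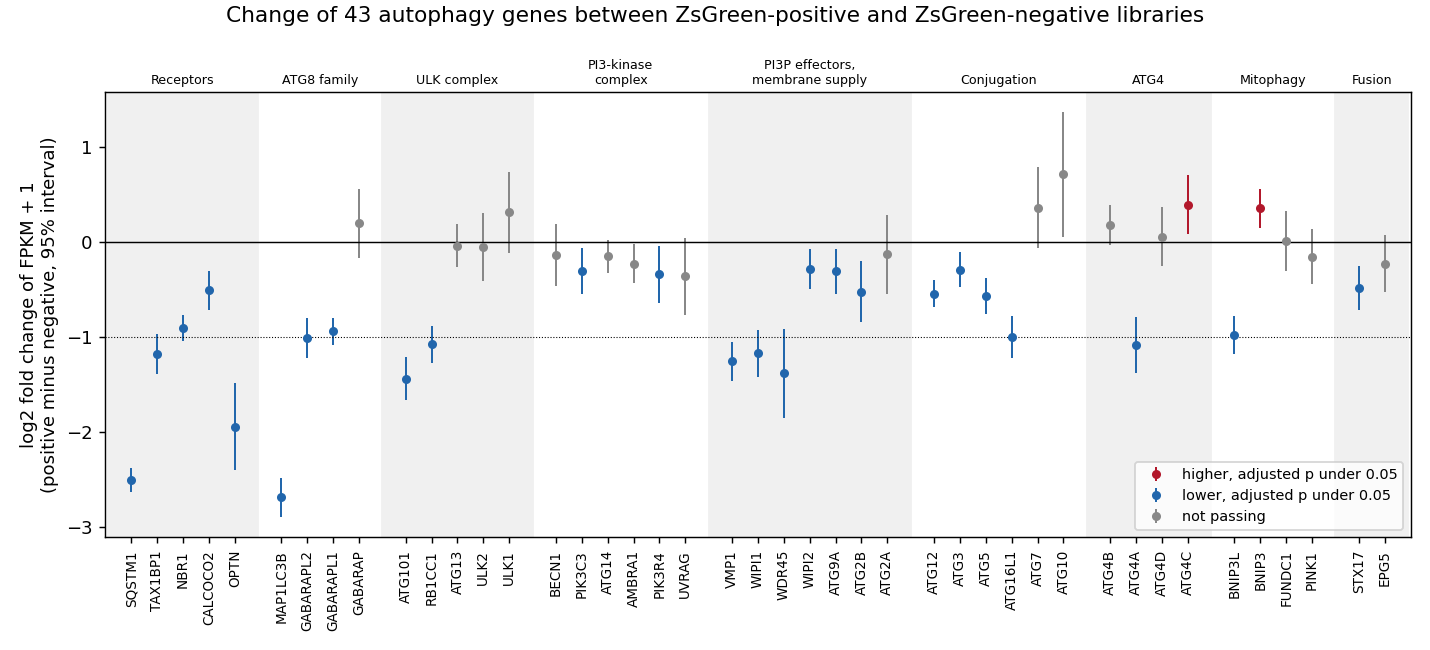
Log2 fold change of FPKM + 1, ZsGreen-positive minus ZsGreen-negative, with its 95% interval for each of the 43 tested genes by role; blue marks falls, red rises and grey genes that did not pass, and the dotted line is a 2-fold fall. MAP1LC3B, SQSTM1 and OPTN reach lowest. The 6 genes of the PI3-kinase complex lie from -0.36 to -0.14, with 2 of them called lower, and ATG4C and BNIP3 are the 2 rises.

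Summed over roles, the receptors differed most. Their summed FPKM was 877 ± 8.41 in ZsGreen-negative and 221 ± 6.41 in ZsGreen-positive libraries, 3.97-fold higher in the former. SQSTM1 was the main part, so this rank rests largely on that gene. In group means the other receptors were 1.44-fold (CALCOCO2), 1.91-fold (NBR1), 2.29-fold (TAX1BP1) and 4.03-fold (OPTN) higher in ZsGreen-negative libraries. The sums of the ULK complex and of the PI3P effectors and membrane supply were 2.21-fold and 2.19-fold higher there. The ULK complex summed to 141 ± 2.34 and 63.8 ± 3.89, the PI3P effectors and membrane supply to 312 ± 7.68 and 143 ± 15.5, and the conjugation enzymes to 145 ± 1.08 and 104 ± 4.36. The PI3-kinase complex stood at 113 ± 2.31 and 97.8 ± 9.70, the mitophagy genes at 107 ± 0.689 and 86.0 ± 6.41 and the fusion factors at 11.4 ± 0.766 and 8.11 ± 0.133. Groups did not overlap for any of these sums or that of the ATG8 family (two-sided exact permutation test, p = 0.1 each; adjusted p = 0.111 over 10 sums), while they did for the ATG4 proteases (p = 0.3). With libraries rescaled to 1000000 the groups overlapped also for the PI3-kinase complex (difference -1.33, exact permutation p = 0.8) and the mitophagy genes (-4.92, p = 0.4), and leaving small RNA genes out of that sum gave overlap for the PI3-kinase complex (p = 0.6).

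Other genes of the pathway, in 4 lists of 95 genes in all, were read from the same fit. Of the 86 tested, 36 fell (41.9%), 17 rose (19.8%) and 33 did not pass, against 30.0% lower and 29.4% higher over all genes tested. Among 20 tested further receptors and mitophagy genes 11 fell (55.0%) and 2 rose (10%), with a median log2 fold change of -0.43. CCPG1, a receptor for the endoplasmic reticulum, went from 30.5 ± 2.29 FPKM to 3.69 ± 1.17 FPKM (log2 fold change -2.78 ± 0.17, adjusted p = 1.22e-05), a fall of the size of those of SQSTM1 and MAP1LC3B. WDFY3, an adaptor for protein aggregates, fell from 12.5 ± 0.424 to 4.64 ± 0.728 FPKM and STBD1, a glycogen receptor, from 17.1 ± 0.634 to 6.73 ± 0.503 FPKM. The 2 that rose were FKBP8 and PHB2, both proteins of mitochondria, chosen here after their values were seen. Among 15 tested further genes of autophagosome formation 10 fell (66.7%) and 3 rose (20%), with a median of -0.67. TMEM41B, which works with VMP1 as a lipid scramblase, fell from 74.5 ± 2.84 FPKM to 22.1 ± 2.39 FPKM (log2 fold change -1.71 ± 0.09, adjusted p = 5.52e-06), and TP53INP1, a p53-induced protein that binds ATG8 proteins, from 22.3 ± 1.32 to 9.42 ± 0.950 FPKM. ATG16L2, a paralogue of ATG16L1, rose from 0.832 ± 0.149 FPKM to 2.96 ± 0.715 FPKM (log2 fold change 1.101 ± 0.18, adjusted p = 0.00153), against the direction of ATG16L1.

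The lists for fusion and for upstream control had medians near 0. Of 19 tested genes of fusion with lysosomes 5 fell (26.3%) and 4 rose (21.1%), with a median of 0.03. PLEKHM1, an adaptor between LC3 and the fusion machinery, went from 5.71 ± 0.215 to 1.92 ± 0.708 FPKM and LAMP2, a lysosomal membrane protein, from 25.6 ± 0.702 to 15.6 ± 0.687 FPKM, while VPS16 of the tethering complexes rose from 11.3 ± 0.806 to 19.6 ± 0.542 FPKM. Of 32 tested genes of mTORC1, AMPK and TFEB control 10 fell (31.2%) and 8 rose (25%), with a median of 0.04. These shares are near the 30.0% and 29.4% of all genes. FOXO3, a transcription factor that activates autophagy genes, fell from 22.5 ± 0.885 FPKM to 7.64 ± 0.0419 FPKM (log2 fold change -1.44 ± 0.07, adjusted p = 5.57e-06). PRKAB2 and PRKAA2, subunits of the energy sensor AMPK, fell from 11.7 ± 0.291 to 3.97 ± 1.25 FPKM and from 6.74 ± 0.216 to 2.28 ± 0.509 FPKM. Among the 8 that rose were MLST8, a subunit of mTORC1 (8.999 ± 0.654 to 22.2 ± 4.87 FPKM), the Rag GTPase gene RRAGA (7.38 ± 0.597 to 17.3 ± 1.73 FPKM), another AMPK subunit gene, PRKAG1 (30.04 ± 1.06 to 44.7 ± 2.37 FPKM), and STK11, which encodes a kinase that activates AMPK. These 4 were chosen after their values were seen. The other Rag GTPase genes of the list, RRAGB, RRAGC and RRAGD, fell (log2 fold change -0.62, -0.71 and -0.93), against the direction of RRAGA. TFEB, the factor best known for switching on autophagy and lysosome genes, was at 0.963, 0.868 and 0.923 against 1.25, 1.09 and 2.62 FPKM and did not pass (adjusted p = 0.161).

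**Figure D4:**
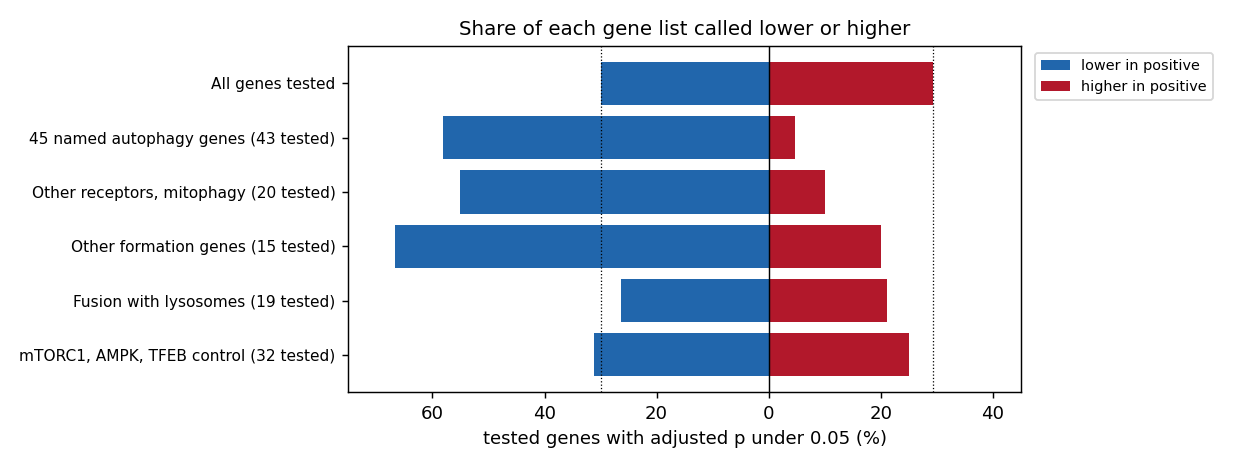
Percent of tested genes called lower (blue, to the left) or higher (red, to the right) in ZsGreen-positive libraries, for all genes, the autophagy genes described here and 4 lists of other pathway genes, with dotted lines at the values for all genes. The autophagy genes reach 58.1% on the lower side and the lists of further receptors and of formation genes 55.0% and 66.7%, against 30.0% of all genes; the fusion and upstream control lists reach 26.3% and 31.2%.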

How the data were processed

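The authors deposited 1 table of FPKM values per library. They were made with Cuffdiff 2.2.1, TopHat2 2.1.1, SAMtools 0.1.18, Bowtie2 2.2.8 and the hg19 build, per the submitters' processing notes. Not given in the sources used here were the annotation, strand use and any scaling between libraries. Because FPKM is relative to a library total, abundant RNAs can shift all other values. No count test was run, because FPKM values are not counts.

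Genes with a mean of at least 1 FPKM entered a limma 3.58.1 fit (R 4.3.3; two-sided moderated test, prior variance trended on mean level) on log2(FPKM + 1), which understates changes of low genes, with Benjamini-Hochberg adjustment over all of them and calls at adjusted p below 0.05. Residual degrees of freedom were 4 and prior ones 3.22. The fit was tested on simulated data that had the spread of the ZsGreen-negative libraries in both groups. How it behaves with a wider ZsGreen-positive spread, as seen for GABARAP and ATG10, was not tested. Shares and sums were compared with exact permutation tests over libraries (Python 3.11.15, SciPy 1.17.1). Alternatives were other pseudocounts, filters, scalings and variance models, the replicate number as a block, and fits without libraries.

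The genes, lists and rules were chosen with earlier results of these data known. Values in every library are given for genes that passed with a log2 fold change of at least 1 in size. They are also given for the 5 most abundant genes, for those listed at 0 anywhere and for some others. Of each pathway list the 3 passing genes with the largest changes are named, besides TFEB, FKBP8, PHB2, MLST8, RRAGA, RRAGB, RRAGC, RRAGD, PRKAG1 and STK11. Of the pathway genes, 7 were matched by an older symbol in RefSeq's gene table.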

Additional observations from a re-analysis of the deposited data

How the results depend on the processing

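Over 17 alternatives, 17 to 26 of the 45 genes were called lower and 0 to 6 higher, against 25 and 2. Higher calls numbered 6 with libraries rescaled to 1000000 and 5 with this rescaling leaving out small RNA genes, 1 with no filter and 1 with quantile normalization, and 0 to 1 without ZsGreen-negative replicate 1, 2 or 3 or ZsGreen-positive replicate 2. With 0 higher calls (limma, without ZsGreen-negative replicate 2), BNIP3 had an adjusted p of 0.0502, and with all 6 libraries 3 genes were higher at an unadjusted p under 0.05. Other pathway genes gave 12 to 22 higher and 26 to 39 lower calls.

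Signs changed only for differences that had not passed. Under rescaling to 1000000, log2 fold changes became 0.059 for ULK2, 0.114 for ATG13, 0.039 for BECN1, 0.012 for ATG14 and 0.00265 for PINK1, and the summed FPKM of the ATG4 proteases was 1.92 higher in ZsGreen-positive cells. Leaving small RNA genes out of that sum gave 0.066 for ULK2, 0.109 for ATG13, 0.022 for BECN1 and 4.89 for the ATG4 sum. Quantile normalization gave -0.029 for FUNDC1. When ZsGreen-positive replicate 1 alone stood for its group (and is assumed to vary like the others) ULK2 was at 0.102 and ATG2A at 0.044. Without each library in turn, log2 fold changes ran from -0.135 to 0.036 for ULK2, -0.098 to 0.031 for ATG13, -0.239 to 0.029 for BECN1, -0.047 to 0.163 for ATG4D and -0.114 to 0.120 for FUNDC1. Differences in share ran from -2.44 to 0.975 percentage points for GABARAPL1 in the ATG8 family and from -0.451 to 0.596 for OPTN in the receptors. The cause was not tested.

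With the replicate block, 22 genes were lower and 3 higher; PIK3C3, PIK3R4 and ATG9A were not called (adjusted p = 0.0508, 0.0603 and 0.0657), and ATG10 was (0.0238). Deviations from group means gave no sign of pairing by number. Those of same-numbered libraries correlated at -0.0301 to -0.0209 across genes, and by them no library correlated best with its own number. For log2(FPKM + 1) itself, ZsGreen-negative replicate 2 correlated best with ZsGreen-positive replicate 2 (0.8544) among libraries of the other group. ZsGreen-positive replicate 1 did so with ZsGreen-negative replicate 1 (0.8507), and the remaining libraries with a different number. Whether same-numbered libraries were prepared together is not stated, and such correlations cannot show it. Unknown depth in ZsGreen-positive replicates 2 and 3 limits the precision of low genes such as ULK1, ATG2A and ATG10.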
